A study of Mus musculus with 24 samples.

Results

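Tissue and genotype were crossed in this comparison: the change from wild type (WT) to Kdm4a knockout (KO) in the pituitary was set against the same change in the hypothalamus. It used 12 of the 24 libraries of the series, 3 for each of 4 groups, and 15571 of 24195 gene symbols that passed a filter on low counts. All were bulk messenger RNA libraries of whole organs from C57BL6 females 8 to 10 weeks old, which were virgin until a natural timed mating and were killed 2.5 days post coitus. The groups were WT pituitary, KO pituitary, WT hypothalamus and KO hypothalamus. The labels call the 3 libraries of a group biological replicates. They do not say whether a pituitary and a hypothalamus library came from the same female, which part of Kdm4a was deleted, or whether the deletion was limited to some cells.

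Kdm4a encodes a histone demethylase that removes methyl groups from lysines of histone H3. The hypothalamus controls the pituitary: its neurones release peptides and dopamine into the portal blood, which set the output of prolactin, growth hormone, gonadotropins, thyrotropin and corticotropin by the anterior lobe, while axons of oxytocin and vasopressin neurones end in the posterior lobe. A gene that moved alike in both organs is called concordant here, and a gene that moved in only 1 of them is a candidate for a tissue-limited change, which needs the test of the difference between the organs.

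Kdm4a RNA itself did not separate the labels in either organ. Levels are given as CPM, read counts scaled to a common library size by TMM over the 12 libraries, with mean ± SD of 3 libraries per group. Kdm4a was at 47.0, 49.8 and 42.1 CPM in WT pituitary and 56.5, 38.8 and 42.8 CPM in KO pituitary, and at 25.9, 35.9 and 22.2 CPM in WT hypothalamus and 25.5, 52.4 and 30.5 CPM in KO hypothalamus. The WT and KO ranges overlapped in both organs, and the fitted log2 change was -0.01 (SE 0.27) in pituitary and 0.37 (SE 0.27) in hypothalamus. Counts were summed over the whole gene, so a deletion that leaves a transcript would not show in them, and KO below means the libraries labelled KO. The paralogues Kdm4b and Kdm4c had log2 changes of 0.10 and -0.04 in pituitary and 0.40 and -0.35 in hypothalamus.

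The libraries held 13201596 to 23865382 counts. The organs matched their labels: Prl and Gh, the prolactin and growth hormone genes, took 34.7% to 54.8% of the counts of each pituitary library and at most 0.0104% of a hypothalamus library. Libraries differed along the base composition and length of transcripts, and some stood apart. On the first principal component of their own organ KO pituitary library 1 lay at 48.3, where the other 5 lay between -32.4 and 12.7, and KO hypothalamus library 2 lay at 62.2, where the other 5 lay between -44.9 and 28.7. Each library's deviation from its organ's mean was rank-correlated across genes with GC content, at -0.524 to -0.257 in the 3 WT pituitaries and 0.155 to 0.545 in the 3 KO pituitaries. The correlations were -0.703 to -0.256 in WT hypothalamus and 0.0589, 0.749 and -0.272 in the 3 KO hypothalami. With transcript length the correlations were -0.558, 0.337 and 0.144 in KO pituitaries 1 to 3 and -0.0570 to 0.218 in the WT pituitaries, and in hypothalamus they ran from -0.439 to 0.728 in WT and from -0.714 to 0.151 in KO. Genotype moved with GC content in pituitary, and in hypothalamus KO library 3 lay beside the WT libraries. Its part in single genes was not tested beyond the fits given with GC and length trends removed. Rn45s, the ribosomal RNA precursor, took 1.21% of KO hypothalamus library 2 and at most 0.287% of each of the other 11.

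3 promoters are shown, 2 of genes with lower values in the KO of both organs and 1 of a gene that rose in the KO pituitary. They run from 250 bases before to 50 after the RefSeq start, on mouse build GRCm38, 5′ to 3′ on the gene's strand, and capitals mark each TATAAA or CCAAT found on either strand. Ccl28 lies on the plus strand at chr13:119623569-119623868, Zfp951 on the minus strand at chr5:104860019-104860318 (1 of 2 starts in the table), and Crhbp on the minus strand at chr13:95444782-95445081.
Ccl28: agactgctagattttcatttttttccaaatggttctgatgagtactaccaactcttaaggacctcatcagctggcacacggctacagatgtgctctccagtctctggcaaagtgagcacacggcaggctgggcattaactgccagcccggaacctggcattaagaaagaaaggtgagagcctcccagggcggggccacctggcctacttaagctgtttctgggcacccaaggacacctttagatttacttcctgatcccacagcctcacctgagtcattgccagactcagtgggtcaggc
Zfp951: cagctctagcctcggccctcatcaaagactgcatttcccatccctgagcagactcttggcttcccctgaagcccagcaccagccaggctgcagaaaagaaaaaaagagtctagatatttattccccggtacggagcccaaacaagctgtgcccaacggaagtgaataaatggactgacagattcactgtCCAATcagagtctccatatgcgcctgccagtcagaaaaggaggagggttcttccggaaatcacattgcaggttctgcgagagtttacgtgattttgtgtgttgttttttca
Crhbp: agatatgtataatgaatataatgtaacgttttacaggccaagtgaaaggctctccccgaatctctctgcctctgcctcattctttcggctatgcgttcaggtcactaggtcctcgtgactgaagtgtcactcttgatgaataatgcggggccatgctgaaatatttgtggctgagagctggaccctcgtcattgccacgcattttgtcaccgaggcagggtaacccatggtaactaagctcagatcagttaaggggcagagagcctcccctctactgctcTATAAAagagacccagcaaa
The Ccl28 window held neither motif and 4 CG dinucleotides. The Zfp951 window held a CCAAT starting 61 bases before the start and 8 CG dinucleotides, and the Crhbp window held a TATAAA at base 31 after the start and 9 CG dinucleotides. Of 27025 mouse promoters of the same length, 14.2% held TATAAA, 37.9% held CCAAT, and the median held 7 CG dinucleotides, and no motif was common to the 3 windows. The promoter of Rps4l, the gene with the strongest fall in both organs, is not shown because the promoter set held no entry for it. RefSeq promoters of other named genes were not analysed here.

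No gene had a genotype change that differed between the organs by the test of the difference. edgeR's quasi-likelihood F test with Benjamini-Hochberg adjustment called 0 of 15571 genes (0%) at a false discovery rate (FDR) of 0.05, and the smallest adjusted p was 0.9998. At an unadjusted p under 0.05 there were 483 genes (3.1%), of which 237 (1.52%) had the higher change in pituitary and 246 (1.58%) the higher change in hypothalamus. DESeq2 and limma-voom called 0 genes too, as did all 24 alternative settings. Among genes measured in both organs (at least 1 CPM on average in each), the median standard error of a difference was 0.37 on the log2 scale and the standard deviation of the differences was 0.41. The 0 count does not show that the organs responded alike.

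Changes within each organ and changes shared by both were few. In pituitary 6 genes (0.0385%) passed FDR 0.05 in the edgeR quasi-likelihood test: Crhbp and Capn8 rose (0.0128%), and Rps4l, Ngp, S100a8 and Chil3 fell (0.0257%). At an unadjusted p under 0.05 there were 962 (6.18%). In hypothalamus the same test called 0 genes (0%), against 2019 (13%) at an unadjusted p under 0.05, of which 913 (5.86%) were lower in KO, and DESeq2 called 6. That model used 1 spread per gene for both organs. With each organ fitted alone by edgeR, the order was reversed: 1749 of 14163 genes in pituitary and 999 of 14788 in hypothalamus had an unadjusted p under 0.05. The coefficient of variation between replicates was 0.202 and 0.285 there, and 6 and 0 genes passed FDR 0.05. The mean of both organs' changes called 2 genes (0.0128%), Rps4l and Ccl28, which fell, and 1215 genes (7.8%) had a lower mean at an unadjusted p under 0.05. Both also had the same sign in each organ and WT and KO libraries that did not overlap in either organ. DESeq2 called 53 genes for the mean and 33 of these by the concordance rule. Without that test, 361 genes (2.32%) had non-overlapping libraries in both organs in the same direction, 222 (1.43%) of them higher and 139 (0.893%) lower in KO, and 28 (0.18%) in opposite directions. Counting each organ by itself, 2892 of 15571 genes (18.6%) had non-overlapping WT and KO libraries in pituitary and 1712 (11%) in hypothalamus. Separation of the genotypes in 1 organ was therefore common. Of the 887 genes measured in pituitary alone, 4 (0.451%) passed FDR 0.05 there and 61 (6.88%) an unadjusted p under 0.05, and of the 1072 measured in hypothalamus alone 0 passed FDR 0.05 and 64 (5.97%) an unadjusted p under 0.05.

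Rps4l, a processed pseudogene related to the ribosomal protein gene Rps4x, had the strongest concordant fall. Its levels were 15.005, 28.2 and 22.4 CPM in WT pituitary and 0.939, 1.88 and 1.70 CPM in KO pituitary. In hypothalamus they were 11.5, 18.5 and 25.1 CPM in WT and 3.02, 5.66 and 2.19 CPM in KO. Every KO library lay below every WT library in each organ, and the 2 WT groups overlapped each other. The log2 change was -3.85 (SE 0.43) in pituitary and -2.34 (SE 0.39) in hypothalamus, and their mean was -3.10 (SE 0.29, adjusted p 0.000132, edgeR quasi-likelihood test with Benjamini-Hochberg adjustment). The difference between the organs was -1.51 (95% interval -2.68 to -0.34, unadjusted p 0.0145), and it did not pass the adjustment over all genes. Rps4x was at 590 to 719 CPM across the 6 pituitary libraries and at 137 to 246 CPM across the 6 hypothalamus libraries, with log2 changes of 0.08 and 0.25. How reads that fit both copies were counted or dropped was not examined, so the split between the pair is uncertain.

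Ccl28, a chemokine of mucosal and glandular epithelium, fell by the same amount in both organs within error. WT pituitary libraries had 9.35, 8.22 and 5.49 CPM and KO pituitary libraries 1.41, 1.81 and 1.83 CPM. WT hypothalamus libraries had 3.40, 6.95 and 2.84 CPM and KO hypothalamus libraries 1.14, 0.61 and 1.28 CPM. The groups did not overlap in either organ. The changes were -2.19 (SE 0.41) and -2.12 (SE 0.41) on the log2 scale, with a mean of -2.15 (SE 0.29, adjusted p 0.0104 by edgeR's quasi-likelihood test with Benjamini-Hochberg adjustment) and a difference of -0.07 (95% interval -1.33 to 1.20). The mean was past the threshold without any single library, and it was -1.97 with an adjusted p of 0.130 by edgeR without KO pituitary library 1 and KO hypothalamus library 2 together.

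Zfp951, a zinc finger gene, was nearly absent from the KO of both organs but missed the threshold for the mean. It had 20, 100 and 51 counts in WT pituitary and 0, 7 and 0 in KO pituitary, and 47, 43 and 48 counts in WT hypothalamus and 10, 0 and 5 in KO hypothalamus. All 6 KO libraries lay below all 6 WT libraries. The log2 changes were -4.58 (SE 0.96) and -3.45 (SE 0.87), and the mean was -4.01 (SE 0.65, adjusted p 0.0649, edgeR quasi-likelihood test with Benjamini-Hochberg adjustment). It was concordant in 10 of 23 alternative settings, whereas Rps4l was in 23 and Ccl28 in 22.

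The other 7 genes with the smallest p for the mean did not pass FDR 0.05 either. Gm7120 ends 12759 bases before Ccl28 on chromosome 13, on the same strand, with no symbol of the tables between them. It was at 12.2, 39.0 and 18.2 CPM in WT pituitary and 6.44, 4.601 and 7.69 CPM in KO pituitary, and at 26.1, 47.1 and 28.5 CPM in WT hypothalamus and 18.3, 5.71 and 14.1 CPM in KO hypothalamus. These groups did not overlap in either organ, and the log2 changes were -1.89 (SE 0.44) and -1.42 (SE 0.43). Sh3bgrl2, a small protein of the thioredoxin fold, had non-overlapping libraries in both organs too, with a larger change in hypothalamus (-1.54, SE 0.28) than in pituitary (-0.69, SE 0.28). Their difference was 0.86 (95% interval 0.02 to 1.69, unadjusted p 0.0445) and did not pass the adjustment. 2610005L07Rik, an unprocessed pseudogene, had changes of -1.56 and -1.05, and Egfl6, a secreted matrix protein, of -2.02 and -0.65.

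Penk was the one gene of the 10 with higher KO levels that was well measured in both organs. It encodes proenkephalin, the precursor of the enkephalin opioid peptides. It had 17.6, 15.4 and 25.5 CPM in WT pituitary and 46.3, 41.5 and 29.4 CPM in KO pituitary. In hypothalamus, where its level was higher in every library, it had 218, 205 and 238 CPM in WT and 432, 435 and 268 CPM in KO. The groups did not overlap in either organ. Its log2 change was 1.004 (SE 0.25) in pituitary and 0.78 (SE 0.24) in hypothalamus, and the mean of 0.89 (SE 0.17) had an adjusted p of 0.193 by edgeR with Benjamini-Hochberg adjustment. Capn8, a calpain protease, rose in pituitary from 24, 40 and 47 counts to 360, 184 and 133 counts (log2 2.55, SE 0.41, adjusted p 0.0405 by edgeR with Benjamini-Hochberg adjustment). In hypothalamus it had 0, 1 and 2 counts in WT and 5, 6 and 5 in KO, which is near the detection limit, so the 95% interval of its difference between the organs spanned -2.50 to 3.63. Its pituitary call ended without WT pituitary library 1, 2 or 3, KO pituitary library 1 or 2, WT hypothalamus library 2 or 3, or KO hypothalamus library 2 (adjusted p 0.0526 to 0.461 by edgeR).

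**Figure D1:**
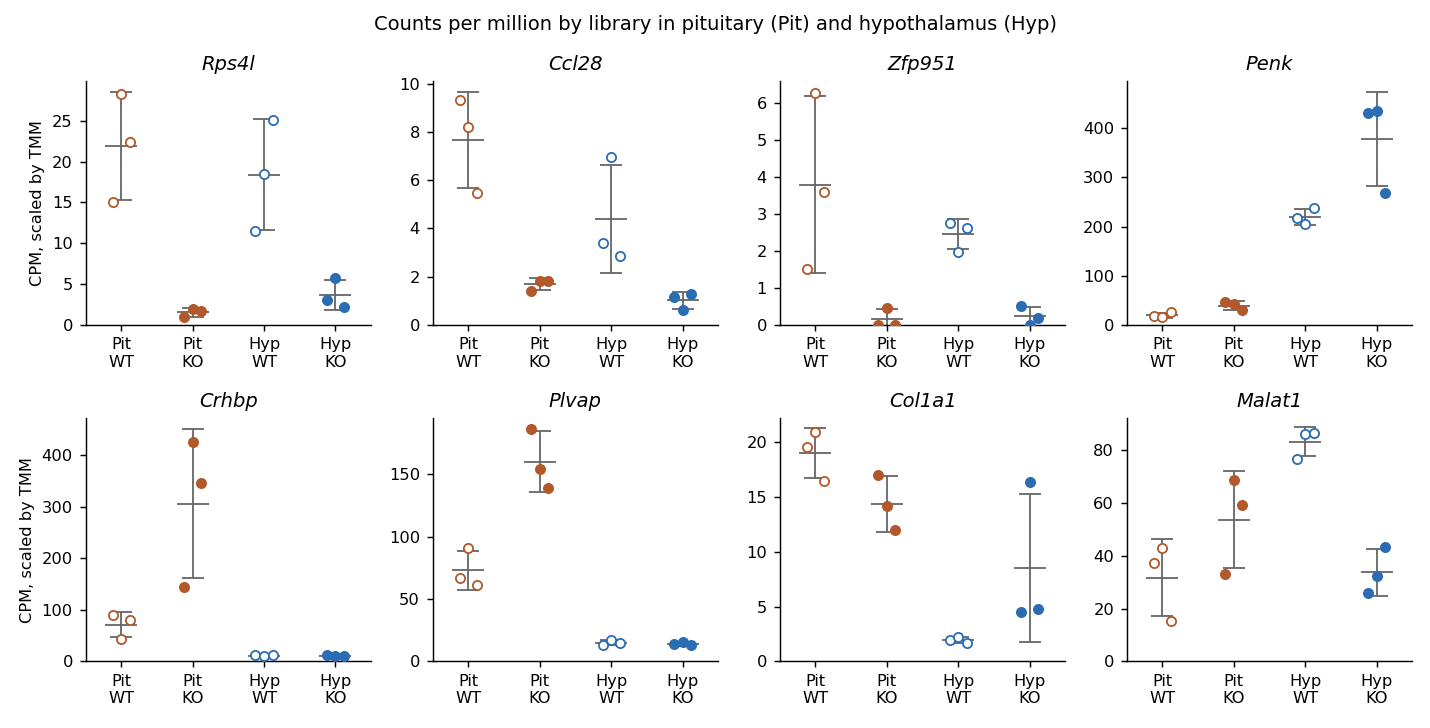
TMM-scaled CPM of 8 genes in each library (open points WT, filled points KO) with mean and SD of 3 libraries per group, each panel on its own linear axis from 0. Rps4l, Ccl28 and Zfp951 are lower in every KO library of both organs, Penk is higher in them, and for Crhbp and Plvap the genotypes are apart in pituitary and overlap in hypothalamus.

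Crhbp had the clearest pattern of a change in 1 organ. It encodes the binding protein of corticotropin-releasing hormone, which sequesters that hypothalamic peptide. WT pituitary libraries had 89.4, 43.8 and 81.2 CPM and KO pituitary libraries 145, 427 and 346 CPM. Hypothalamus libraries had 12.4, 9.62 and 12.1 CPM in WT and 12.6, 11.4 and 10.2 CPM in KO. The genotypes were apart in pituitary, as in 18.6% of all genes, and interleaved in hypothalamus. Crhbp rose in pituitary (log2 2.10, SE 0.33, adjusted p 0.0400 by edgeR with Benjamini-Hochberg adjustment), and the hypothalamic value was 0.0013 (SE 0.33). The difference of 2.10 (95% interval 1.11 to 3.09, unadjusted p 0.000363) had the smallest p after that of Smyd1 and did not pass the adjustment over all genes. Across the alternatives the difference stayed between 1.78 and 2.43, and its smallest adjusted p was 0.116, without KO pituitary library 1, by edgeR. The call in pituitary ended when any 1 of 9 of the 12 libraries was left out (adjusted p 0.0520 to 0.228 by edgeR), and stood without KO pituitary library 1, KO hypothalamus library 1 or KO hypothalamus library 3. Crh was at 9.67 to 15.6 CPM in hypothalamus with a log2 change of 0.07, and its receptor gene Crhr1 had changes of -0.11 in pituitary and 0.63 in hypothalamus.

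The 3 genes other than Rps4l that fell in pituitary are granule or alarmin genes of neutrophils. S100a8, a calprotectin subunit, had 24.4, 54.0 and 2.53 CPM in WT pituitary and 0.603, 0.130 and 0.717 CPM in KO pituitary. In hypothalamus it had 0.880, 1.38 and 0.982 CPM in WT and 0.495, 0.0872 and 0.730 CPM in KO. The genotypes did not overlap in either organ, but WT pituitary library 3 lay far below the other WT pituitaries and nearer to the KO libraries. The log2 change was -5.79 (SE 0.89) in pituitary, -1.28 (SE 0.89) in hypothalamus, and the difference was -4.51 (95% interval -7.20 to -1.82). Ngp, the neutrophilic granule protein, fell by 5.64 in pituitary and Chil3, a chitinase-like protein of myeloid cells, by 4.95, against -0.53 and -0.02 in hypothalamus, where their libraries held 0 to 11 counts.

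Of the list of 11 neutrophil markers, to which these 3 genes belong, 7 passed the filter on low counts, and those entered it mainly through the WT pituitaries. The summed level of the 11 was 26.4 to 166 CPM in WT pituitary, 16.8 to 24.9 CPM in KO pituitary, 3.27 to 4.17 CPM in WT hypothalamus and 2.22 to 2.59 CPM in KO hypothalamus. Elane was at 0 in KO pituitary and WT hypothalamus. The markers did not all move alike. S100a9, the partner subunit of S100a8, had 21.9, 34.2 and 2.25 CPM in WT and 0.670, 0.842 and 0.522 CPM in KO pituitary, without overlap. Ltf, the lactoferrin gene, had 7.84, 11.1 and 0.914 CPM in WT and 1.01, 0.389 and 1.63 CPM in KO pituitary, with overlap, and Lcn2 and Mmp8 had pituitary changes of -0.28 and -0.21. In bulk tissue fewer cells of a type and less RNA per cell cannot be told apart, and the part of blood left in the organs was not tested. Leaving out WT pituitary library 1 or 2, any KO pituitary library, WT hypothalamus library 2 or 3, or KO hypothalamus library 2 ended the call of S100a8 and of Ngp in edgeR, with adjusted p of 0.0520 to 0.240. Chil3 lost its call in those settings and also without WT hypothalamus library 1, with adjusted p of 0.0566 to 0.332 by edgeR.

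The other genes with the smallest p for the difference fell into 3 kinds, and none passed the adjustment over all genes. The first kind was measured in hypothalamus and near 0 in pituitary. Smyd1, a histone methyltransferase known from muscle, had 0 counts in all WT pituitaries and 5, 2 and 5 in KO pituitaries, against 12.4 to 16.4 CPM in WT and 6.45 to 10.5 CPM in KO hypothalamus. S1pr5, a sphingosine-phosphate receptor of oligodendrocytes, had 0 counts in the WT and 4, 8 and 1 in the KO pituitaries, and 19.7 to 24.6 CPM in WT and 24.7 to 28.2 CPM in KO hypothalamus. Dmp1, a matrix phosphoprotein of bone and dentine, had 0 counts in the WT and 2, 3 and 4 in the KO pituitaries.

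Counts this low carry little weight. The KO pituitary level was set against a floor of 3 counts over the 3 WT pituitaries. It was 3.80-fold that floor for Smyd1, 4.12-fold for S1pr5 and 2.85-fold for Dmp1. Error in the KO counts is not in these ratios, so they are no lower bounds. Kcns2, a silent subunit of voltage-gated potassium channels, had 1, 2 and 0 counts in WT and 11, 10 and 5 in KO pituitary, and 16.1 to 21.2 CPM in all 6 hypothalamus libraries. Marker sums of brain cells overlapped between the genotypes in pituitary. The 14 neurone markers summed to 1207 to 1243 CPM in WT and 1131 to 1378 CPM in KO pituitary, and the 12 oligodendrocyte markers to 106 to 120.3 CPM and 100.4 to 118 CPM, with Opalin at 0 in the WT pituitaries.

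The second kind had higher levels in the KO pituitary with overlapping genotypes in hypothalamus. Plvap, the diaphragm protein of fenestrated capillaries, had 66.8, 91.0 and 61.3 CPM in WT pituitary and 187, 154 and 139 CPM in KO pituitary. In hypothalamus it had 13.0, 16.9 and 14.9 CPM in WT and 13.7, 15.5 and 12.9 CPM in KO. The genotypes were apart in pituitary, as in 18.6% of all genes, and overlapped in hypothalamus. The log2 change was 1.13 (SE 0.21, adjusted p 0.103 by edgeR with Benjamini-Hochberg adjustment) in pituitary and -0.10 (SE 0.21) in hypothalamus, and the difference was 1.23 (95% interval 0.60 to 1.85, unadjusted p 0.000734).

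The list of 16 endothelial markers, to which Plvap belongs, leaned to higher values in the KO pituitary. All 16 were tested, and 16 had a positive change in pituitary with a median of 0.52, against 9 in hypothalamus with a median of 0.14. Over all 15571 genes the median was 0.00 in pituitary, with 7820 positive, and 0.02 in hypothalamus, with 8087 positive. At an unadjusted p under 0.05, 6 of the 16 were higher in pituitary (3.54% of all genes were) and 1 in hypothalamus (7.1%). The summed level of the list was 223 to 309 CPM in WT and 379 to 447 CPM in KO pituitary, without overlap, and 157 to 199.6 CPM in WT and 174 to 237 CPM in KO hypothalamus, with overlap. Plvap, chosen for its small p, is counted in the 16, the 6 and the sum, and the sum without it was not computed. Tie1 and Eng, an orphan receptor and a TGF-beta co-receptor of endothelium, had pituitary changes of 0.90 and 0.76 and hypothalamus changes of 0.59 and 0.26. Cldn5, the tight-junction claudin of the blood-brain barrier, had 0.66 and 0.79, and no difference between organs passed FDR 0.05.

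The third kind had changes of opposite sign. Malat1, an abundant nuclear noncoding RNA, was at 37.1, 43.0 and 15.2 CPM in WT pituitary and 33.1, 68.6 and 59.1 CPM in KO pituitary. In hypothalamus it was at 76.8, 86.3 and 86.4 CPM in WT and 25.8, 32.4 and 43.4 CPM in KO. The genotypes overlapped in pituitary and were apart in hypothalamus, as in 11% of all genes. The changes were 0.76 (SE 0.33) and -1.30 (SE 0.34), with a difference of 2.05 (95% interval 1.05 to 3.05). Meg3, a maternally expressed noncoding RNA, had a similar pair of values, 0.62 (SE 0.30) and -1.12 (SE 0.30).

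Col1a1, the main fibrillar collagen of connective tissue, had its higher values in the KO hypothalamus. WT hypothalamus libraries had 2.00, 2.21 and 1.69 CPM and KO hypothalamus libraries 4.51, 16.3 and 4.75 CPM. Pituitary libraries had 19.5, 20.9 and 16.5 CPM in WT and 17.0, 14.1 and 11.9 CPM in KO. The hypothalamic genotypes did not overlap, and KO hypothalamus library 2 was far above the other 2. The changes were -0.40 (SE 0.38) in pituitary and 2.11 (SE 0.42) in hypothalamus, the difference was -2.51 (95% interval -3.71 to -1.31), and across the alternatives it ranged from -2.81 to -1.63, the value without KO hypothalamus library 2.

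The list of 12 fibroblast and meningeal markers, to which Col1a1 belongs, leaned to higher values in the KO hypothalamus. In hypothalamus 11 of the 12 had a positive change, with a median of 0.82, and in pituitary 6 did, with a median of -0.10. For all 12 the pituitary change was below the hypothalamic one, where 7825 of 15571 genes were, and 4 had an unadjusted p under 0.05 for the difference in that direction (1.58% of all genes): Col1a1, Col3a1, Dcn and Igf2. The summed level was 354 to 1524 CPM in WT and 1160.4 to 2043 CPM in KO hypothalamus, so the groups overlapped through WT library 3. None of the 12 was at 0. Col1a1, chosen for its small p, is counted in the 11, the 12, the 4 and the sum, and the sum without it was not computed. The amount of meninges dissected with each hypothalamus was not tested.

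**Figure D2:**
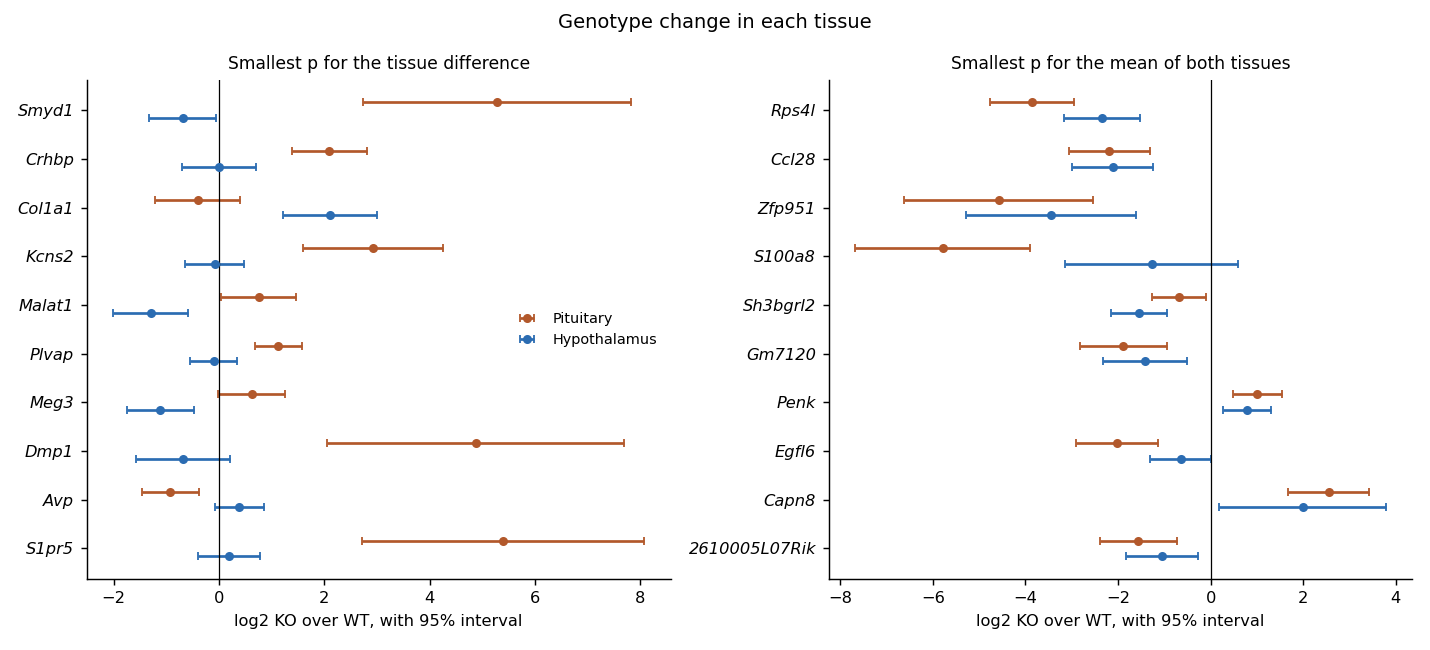
Fitted log2 KO over WT with 95% intervals in pituitary and hypothalamus, for the 10 genes with the smallest p for the difference (left) and for the mean of both organs (right). On the left the 2 intervals lie apart for all 10 genes, which were chosen for this, and the pituitary values of Smyd1, Dmp1 and S1pr5 are fitted against WT groups at 0 counts and are no bound. On the right they overlap for all but S100a8.

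The posterior-lobe hormone genes had lower values in the KO pituitary, and Oxt had higher values in the KO hypothalamus. Avp, the vasopressin gene, had 5.73, 5.27 and 5.91 CPM in WT pituitary and 2.55, 2.46 and 3.91 CPM in KO pituitary, without overlap. In hypothalamus, where vasopressin neurones have their cell bodies, it had 196, 222 and 289 CPM in WT and 355, 331 and 237 CPM in KO, with overlap. The changes were -0.92 (SE 0.26) and 0.38 (SE 0.22), and the difference was -1.30 (95% interval -2.02 to -0.59, unadjusted p 0.0013). Oxt, the oxytocin gene, had 5.13, 8.03 and 6.33 CPM in WT and 4.89, 3.95 and 3.06 CPM in KO pituitary. In hypothalamus it had 68.0, 94.0 and 99.7 CPM in WT and 167, 519.7 and 112 CPM in KO. All KO libraries were below the WT range in pituitary and above it in hypothalamus, and the difference of -2.32 (SE 0.61) was -1.39 without KO hypothalamus library 2.

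The list of posterior-lobe markers had lower values in the KO pituitary. Of the 8 markers, 0 had a positive pituitary change and the median was -0.38, whereas in hypothalamus, which shares some of these genes, 4 did and the median was -0.04. Their summed level was 180.0 to 230.3 CPM in WT and 112 to 146 CPM in KO pituitary, without overlap. Scn7a, a sodium channel of pituicytes and other glia, was at 60.2, 67.9 and 87.8 CPM in WT and 21.9, 34.2 and 29.1 CPM in KO pituitary, with a change of -1.34 (SE 0.26) there and -0.41 (SE 0.26) in hypothalamus. Scn7a is counted in the 8, the median and the sum, and the sum without it was not computed. The list was chosen with earlier results of these data known. Col25a1, a transmembrane collagen, had -0.91 and -0.67. The share of posterior lobe in each dissection was not tested.

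Genes with an unadjusted p under 0.05 in both organs at once were mostly of the same direction. Of 12784 genes measured in both organs there were 133 (1.04%), of which 76 had higher and 53 lower KO values in both and 4 had opposite signs. The 4 were Gng7, Gpc3, Leng8 and Malat1, named after their values were seen. Gng7, a G-protein gamma subunit of neurones, had -0.54 in pituitary and 0.51 in hypothalamus, and Gpc3, a glypican, had -0.55 and 0.55. Leng8 had 0.54 and -0.73. None of these passed FDR 0.05 for the difference. Of all genes measured in both organs 70% had the same sign. That share was 56.6% with GC and length trends removed, and 52% without KO pituitary library 1 and KO hypothalamus library 2. The 133 genes were not recounted in those settings, so their part in these library trends was not tested.

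Releasing factors, their receptors and the pituitary hormones gave no call. Of 16 releasing-factor genes 14 were tested, and 12 of them had a positive change in hypothalamus with a median of 0.35, but only 3 were measured in both organs. Trh was at 117 to 122 CPM in WT and 126 to 167 CPM in KO hypothalamus, and Gnrh1 at 2.23 to 8.79 CPM in WT and 5.52 to 6.89 CPM in KO. Gal, the galanin gene, which lactotropes also express, had a pituitary change of 2.19 (SE 0.57) that rested mainly on KO library 1 at 261 CPM, where the other KO libraries had 59.0 and 34.4 CPM and WT 14.4 to 46.1 CPM. Vip, a prolactin-releasing peptide, had 1.10 (SE 0.40) in pituitary and -0.13 (SE 0.35) in hypothalamus. Of the 14 receptors for releasing factors, 7 were positive in pituitary and 6 in hypothalamus.

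Pomc, the precursor of corticotropin and melanocortins, is made in both organs. It was at 0.18 (SE 0.30) in pituitary and 0.89 (SE 0.31) in hypothalamus on the log2 change scale, with WT and KO libraries overlapping in each. Of the 13 feeding peptides and receptors 10 had a positive change in hypothalamus, with a median of 0.35. Among them Agrp, the orexigenic melanocortin antagonist, was at 1.10 to 2.05 CPM in WT and 3.18 to 5.80 CPM in KO hypothalamus, without overlap, and at 0 to 5 counts in pituitary. Of 11 steroid, thyroid, retinoid and prolactin receptors, 8 had a negative change in hypothalamus (median -0.55) and 7 in pituitary (median -0.07). Pgr, the progesterone receptor, had -0.56 and -0.73, and Prlr, the prolactin receptor, had -0.34 and -0.93.

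Lists of shared cell functions were described the same way, by counts beside those of all genes. All 12 genes of the secretory granule, which both organs use for peptide release, had the same sign in both. They were all measured in both organs, and 70% of genes so measured had the same sign. That share was 56.6% with GC and length trends removed, and 52% without KO pituitary library 1 and KO hypothalamus library 2. Medians of the 12 were 0.08 and 0.10. The largest change in pituitary was that of Vgf, a granin-like neuropeptide precursor, at 1.03 in pituitary and 0.69 in hypothalamus, and the largest in hypothalamus that of Pcsk1n, an inhibitor of prohormone convertase, at 0.49 and 1.68. Pcsk1n in hypothalamus rested on KO library 2 at 2616 CPM, where the other 5 libraries had 212 to 612 CPM. Of the 12 antigen-presentation genes 11 had the same sign in both organs, with medians of 0.20 in pituitary and 0.75 in hypothalamus, and for all 12 the hypothalamic change was the higher. Their summed level overlapped between genotypes in both organs. It was 1154 to 2056 CPM in WT and 1446 to 1534 CPM in KO pituitary, and 220 to 332 CPM in WT and 210 to 370 CPM in KO hypothalamus. The immunoproteasome gene Psmb9 was the only one of the 12 with non-overlapping libraries in both organs (2.32% of all genes had them in the same direction), at 0.43 and 1.28.

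Other lists had medians farther from 0 in pituitary. Of 18 genes of S phase and mitosis, 0 had a positive change in pituitary (median -0.60) and 7 did in hypothalamus (median -0.04). Their summed level was 169 to 282 CPM in WT and 129.5 to 207 CPM in KO pituitary, with overlap, and 4 of the 18 were lower in pituitary at an unadjusted p under 0.05 (2.64% of all genes were). Ccnb1, a mitotic cyclin, had 53, 71 and 40 counts in WT and 29, 19 and 10 in KO pituitary, but only 0 to 7 counts in a hypothalamus library. Mki67, the proliferation antigen, had negative values in both organs, -0.75 and -1.43. Of 14 immediate early genes 11 were positive in pituitary (median 0.58) and 6 in hypothalamus (median -0.15), but single libraries spread widely: Fos had 7.16, 3.01 and 3.16 CPM in WT and 3.69, 23.1 and 5.09 CPM in KO pituitary. Of 14 clock genes 10 were positive in pituitary (median 0.48) and 9 in hypothalamus (median 0.09), and Cry1, a repressor of the clock, had -0.61 and 0.13. Of the 18 tested enzymes and readers of histone H3 lysine methylation, 12 (66.7%, the share of all genes) had the same sign in both organs. None passed FDR 0.05 in edgeR, and at an unadjusted p under 0.05 there were 0 in pituitary (6.18% of all genes) and 1 in hypothalamus (13%).

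**Figure D3:**
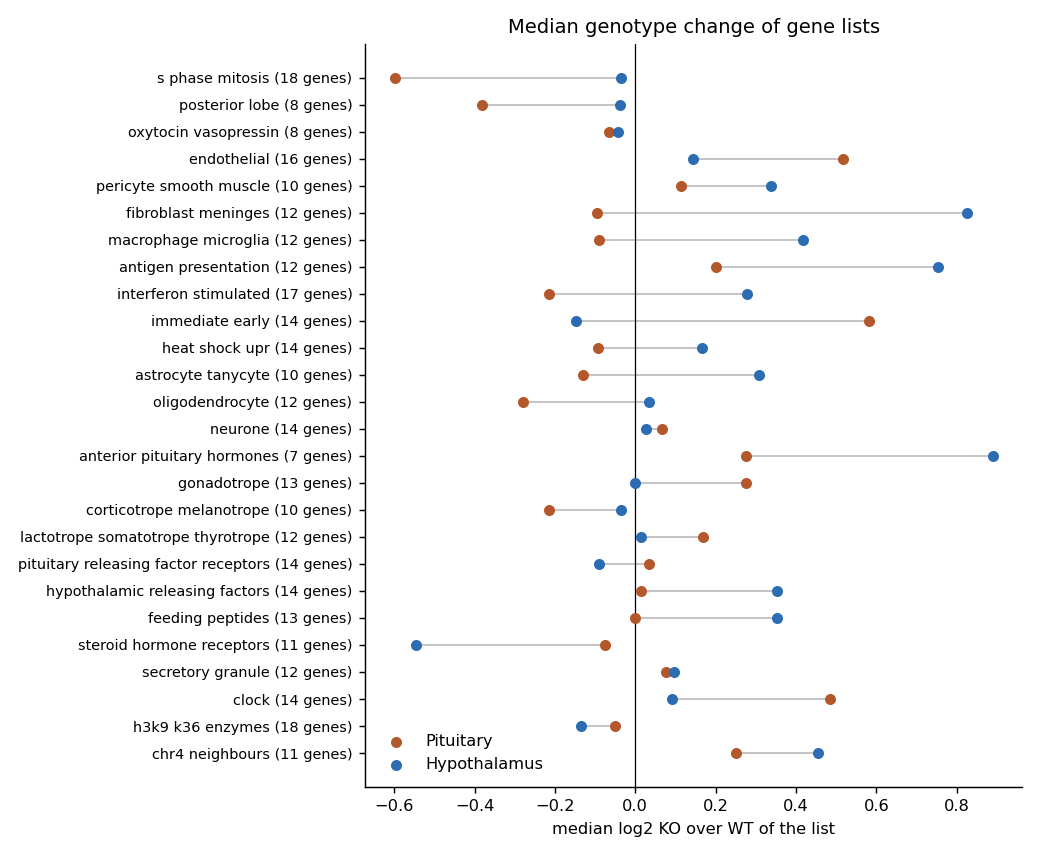
Median log2 KO over WT of selected gene lists in pituitary and hypothalamus (neutrophil markers and some other lists not drawn), 1 row per list with its number of tested genes. The endothelial list at 0.52 and 0.14, and the fibroblast and meningeal list at -0.10 and 0.82.

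Across the 12784 genes measured in both organs, the 2 sets of changes were correlated. The correlation was lower with GC and length trends removed and near 0 without 2 KO libraries. Spearman's rho across genes was 0.501 and 70% of genes had the same sign in both organs. Genes are not independent replicates, and the value is a description of these libraries. It went with GC content: in the fifth of genes lowest in GC the median change was -0.24 in pituitary and -0.36 in hypothalamus, and in the fifth highest in GC it was 0.27 and 0.41. With trends of GC and length removed the correlation was 0.185 and 56.6% had the same sign. Without KO pituitary library 1 and KO hypothalamus library 2, which were chosen after the data were seen, it was 0.0354 and 52%. Rps4l was at -3.61 in pituitary and -2.82 in hypothalamus without those libraries, and Ccl28 at -2.07 and -1.86. The correlation was not computed with other libraries left out.

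**Figure D4:**
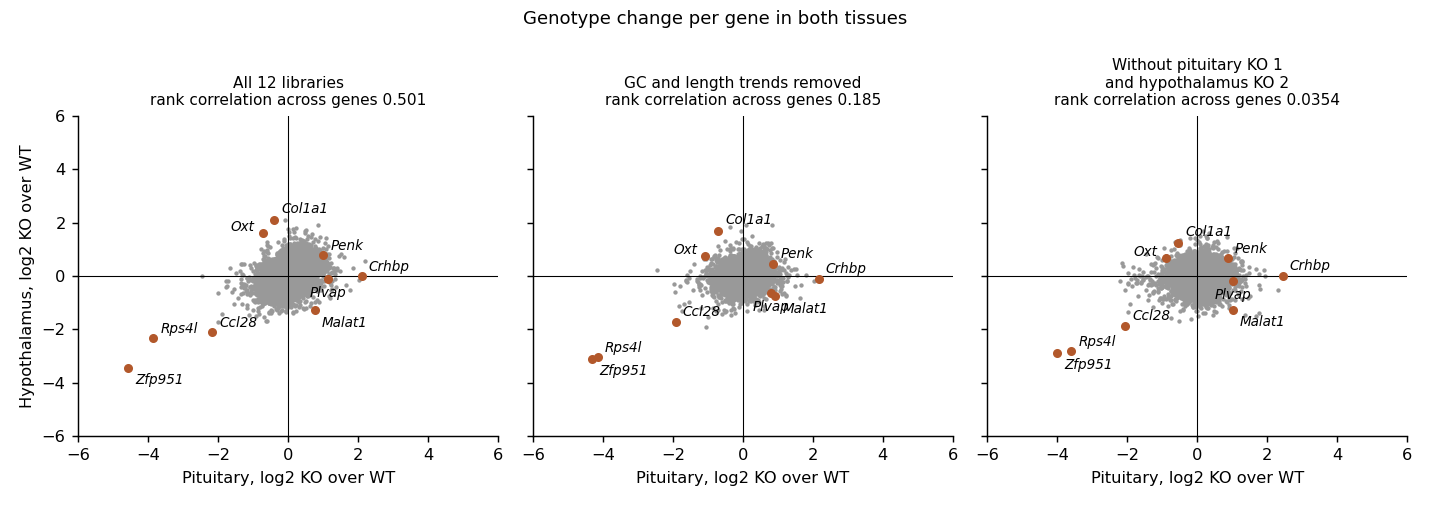
Log2 KO over WT in hypothalamus against pituitary for each of 12784 genes measured in both, with all 12 libraries, with GC and length trends removed, and without 2 KO libraries; named genes are drawn in colour. The cloud is tilted in the first panel and round in the last (rank correlation 0.501, 0.185 and 0.0354), while Rps4l, Zfp951 and Ccl28 stay at the lower left in each.

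In the authors' deposited table of genotype comparisons, 39 genes (0.33%) had an adjusted p under 0.05 in pituitary and 7 (0.0372%) in hypothalamus. The 2 genes on both lists of the authors' deposited table were Ccl28 and Rps4l, lower in KO in each, which is 5.13% of the pituitary list and 28.6% of the hypothalamus list. Plvap was on the pituitary list of the authors' deposited table, with a log2 change of 0.93 and an adjusted p of 9.8e-06, and had -0.10 in hypothalamus. Malat1 and Col1a1 were on the hypothalamus list of the authors' deposited table, with log2 changes of -1.08 and 1.26. Zfp951 and Sh3bgrl2 were on that list too, and Penk and Gm7120 on the pituitary list, though none of these 4 passed FDR 0.05 for the mean here. Zfp951 had a log2 change of only -0.18 in pituitary there, without an adjusted p. Deposited log2 changes could be much smaller in size, as for Chil3 in pituitary (-1.22 there, -4.95 here), so sizes are not compared. Of the 6 genes called in pituitary here, Rps4l and Capn8 were on the pituitary list of the authors' deposited table and the other 4 were not. The adjusted p in the authors' deposited table was 0.0550 for Crhbp, 0.205 for S100a8 and 0.197 for Ngp, and Chil3 had none. That table compares genotypes within an organ and holds no test of the difference between organs.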

How the data were processed

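Whole pituitary and hypothalamus RNA with integrity numbers of at least 8 was made into poly-A libraries with 13 PCR cycles, per the labels' protocols, which mention no strand marking; overlapping genes on opposite strands cannot be told apart. Raw integer counts for each symbol were deposited by the authors, with DESeq2 log2 fold changes and p-values of KO against WT, per the file headers. FastQC, Trimmomatic, STAR, HTSeq, DESeq2 and build mm10 appear in the submitters' processing notes; their versions were not used here.

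Of 24222 entries, 27 carried a date in place of a symbol and were left out (0.122% to 0.392% of counts per library). The 12 libraries were fitted in 1 model over 4 groups with edgeR 4.0.16 in R 4.3.3 (TMM, filterByExpr, robust quasi-likelihood F test, Benjamini-Hochberg adjustment over 15571 genes, FDR 0.05, two-sided). Contrasts were the KO change in each organ, their mean and their difference. A gene was concordant if the mean passed, signs matched and WT and KO libraries did not overlap in either organ. Named genes were the 10 with the smallest p for the difference (at least 1 CPM in an organ, no predicted or Rik symbol), the 10 for the mean, those called in an organ, and up to 2 per list with the smallest p for the difference. Other list members were named after their values were seen. Gene positions came from GENCODE M21 and promoters from RefSeq (GRCm38). Alternatives were DESeq2 1.42.0, limma-voom (limma 3.58.1), other scaling, filters and blocks, each organ fitted alone, and libraries left out. P-values set a change against the spread between these libraries. Members and lists were chosen with earlier results of these data known. The model was checked on simulated counts.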

Additional observations from a re-analysis of the deposited data

How the results depend on the processing

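The count of 0 genes for the difference held in all 24 alternatives, and the lowest of their smallest adjusted p was 0.109, under limma-voom with quality weights. Genes called in pituitary (6), hypothalamus (0), by the mean (2) and as concordant (2) moved as follows, and the cause was not tested. DESeq2 gave 15, 6, 53 and 33, limma-voom with quality weights 7, 43, 12 and 8, and limma-voom 1 in pituitary. Without a filter on low counts there were 1 in hypothalamus and 4 by the mean and as concordant, with at least 1 CPM in each organ 1 in pituitary, and in a fit over all 24 libraries 6 by the mean and as concordant. With GC and length trends removed there were 2 in pituitary and 1 in hypothalamus. Leaving out 1 library gave 1 to 6 in pituitary (1 or 2 without WT pituitary library 1 or 2, any KO pituitary library, WT hypothalamus library 2 or 3, or KO hypothalamus library 2), 0 to 20 in hypothalamus (20 without WT hypothalamus library 3), 2 to 10 by the mean (5 without WT pituitary library 3) and 2 to 7 as concordant, both highest without WT hypothalamus library 3. Without KO pituitary library 1 and KO hypothalamus library 2 together there were 2 in pituitary and 1 by the mean and as concordant. Whether same-numbered libraries of the organs share a female is not settled: their deviations correlated at -0.112 to 0.405, and 3 of 6 pituitary libraries correlated best with their own number. With the replicate number as a block there were 0 for the difference, 2 in pituitary, 1 in hypothalamus and 2 concordant. The Ccl28 difference, near 0 in the main fit, turned positive in 7 of the fits without 1 library (0.0082 to 0.167, against -0.57 at the lowest), and that of Tgfbr3l was -0.026 under limma-voom with quality weights. Of the gene values under alternatives, 1229 kept direction and side of the threshold, 72 lost and 33 gained a call, and 8 changed sign. The median standard error of a difference was 0.37 on the log2 scale, from 3 libraries a group.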
